A study of Homo sapiens and Mus musculus with 4 samples.

Results

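Isolated peaks are the short, lone intervals of the mouse bone marrow ATF4 peak list. The members were selected on the listed positions alone. A member is a peak on chromosomes 1 to 19 that is under 2000 bp wide and has more than 50 kb of sequence free of listed peaks on either side, measured edge to edge against the whole list. The rule found 3383 such peaks among the 83088 of the mouse list, and among the 83961 peaks of both lists of the series. They were 4.16% of the 81297 peaks on these chromosomes and 4.60% of the 73623 that were under 2000 bp wide.

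The mouse list came from bone marrow cells of C57BL/6 animals, with 1 ATF4 ChIP library and 1 input library prepared without antibody. Neither age, sex, treatment nor the number of animals is stated in the labels, and no genotype other than the strain is named. The cells were whole bone marrow as far as the labels say, so a peak cannot be assigned to a blood cell type. The other list of the series came from KG1a, a human acute myeloid leukaemia line.

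ATF4 is a basic leucine zipper transcription factor whose translation rises when the initiation factor eIF2 is phosphorylated, as happens under amino acid shortage or protein folding stress. It binds DNA as a dimer, often with C/EBP partners, at composite elements near genes of amino acid supply and stress recovery. In chromatin immunoprecipitation a peak is an interval with more reads in the antibody library than the peak caller expects. Peaks can stand alone or in groups, and a single interval does not show by itself which protein or how many binding sites lie under it.

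The mouse list holds 3 columns, the chromosome, start and end of each peak. Peak height, enrichment, p-value and read depth were not part of it. The depth is therefore unknown, and single peaks carry no error. Mouse genes and the mouse sequence were not used here. Distances from isolated peaks to genes, exons or promoters were therefore not analysed here, no sequence is shown, and regions are given by position alone on GRCm38. With 1 list from 1 antibody library there is no replicate check, and peaks of 1 list are not replicates. Values are compared as descriptions with Wilson 95% intervals, which cover counting error only, and no test was made.

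Most members stood at gaps not far above the limit, and a few stood very far from any other peak. The gap to the nearer neighbour ran up to 693 kb, with a median of 68.3 kb and quartiles of 57.3 and 88.1 kb. The gap to the farther neighbour had a median of 118 kb and reached 1749 kb. These gaps are what the rule selected. Both gaps exceeded 100 kb at 571 peaks, 150 kb at 131, 200 kb at 39 and 400 kb at 6. The left gap, towards lower coordinates, was the longer at 1709 of the 3383 peaks, so the longer gap lay about equally often on either side.

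**Figure D1:**
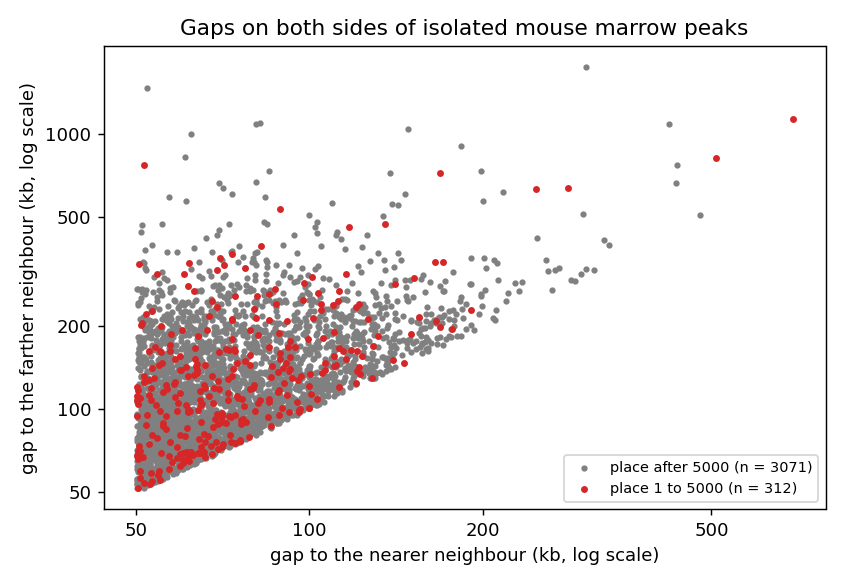
Each point is 1 of the 3383 isolated peaks, with the gap to its nearer neighbour in kb on the x axis and the gap to its farther neighbour in kb on the y axis, both on log scales. Red points are the 312 peaks in places 1 to 5000 of the deposited order; they lie among the grey points of the other 3071 at short and at long gaps.

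The loneliest peak stood on chromosome 17. It spanned 34868978 to 34869420, 443 bp, and its neighbours lay 1136 kb to the left and 693 kb to the right. The next was also on chromosome 17, from 28119500 to 28119950, 451 bp wide, with gaps of 819 and 509 kb. Both were early in the deposited order, in places 968 and 4259 of 83088. Another 8 peaks complete the 10 with the largest nearer gap, and none of these 8 lay in the first 5000 places. Of all members 9.22% lay there, so counts among 10 peaks do not set these apart.

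On chromosome 6 a peak of 333 bp, from 147922631 to 147922963, had gaps of 478 and 508 kb. Chromosome 14 gave a pair of such peaks. One spanned 6959192 to 6959526, with gaps of 435 and 772 kb, and the other 42395026 to 42395414, with gaps of 434 and 661 kb. On chromosome 11 the peak from 73280680 to 73281480, 801 bp wide, had its right neighbour 1090 kb away and its left neighbour 422 kb away. These 4 peaks were in places 25379, 29697, 15472 and 37548.

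The remaining 4 of the 10 had nearer gaps of 303 to 332 kb. They were a 623 bp peak on chromosome 1 from 60882381 to 60883003, a 1050 bp peak on chromosome 10 from 105933353 to 105934402 and a 674 bp peak on chromosome 7 from 33702581 to 33703254. The last was a 288 bp peak on chromosome 5 from 93751791 to 93752078, next to the longest empty side of any member, 1749 kb. Across the 10, widths ran from 288 to 1050 bp, so the most lonely peaks were neither the narrowest nor the widest of the list.

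Isolated peaks were narrow. Their median width was 443 bp (95% order-statistic interval 434 to 454 bp), with quartiles of 333 and 692 bp and a 90th percentile of 1095 bp. The 70240 other peaks under 2000 bp had a median of 504 bp and quartiles of 351 and 805 bp. Between 1000 and 1999 bp lay 412 isolated peaks, 12.2%, against 16.6% of the other short peaks. Under 310 bp lay 623, 18.4%, against 14.4%. The median width of isolated peaks was below that of the other short peaks on all 19 chromosomes, at 418 to 484 bp against 488 to 520 bp. In all, the isolated peaks covered 1.96 Mb, or 2.63% of the 74.6 Mb under peaks on these chromosomes.

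The narrower width was shared with other peaks that had no close neighbour. Short peaks were divided by the gap to their nearer neighbour, a split chosen after the values were seen. The 47867 peaks with a neighbour within 3 kb had a median width of 530 bp (interval 527 to 534 bp). The 8488 peaks with a nearer gap of 3 to 10 kb had a median of 447 bp, and the 13848 with a nearer gap of 10 to 50 kb had 453 bp (interval 447 to 459 bp). The interval of the isolated peaks, 434 to 454 bp, overlaps that of the 10 to 50 kb class. Against that class the isolated median was lower on 13 of 19 chromosomes, and against peaks with a neighbour within 3 kb it was lower on all 19.

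The width limit removed few lone peaks. Of 3640 peaks on chromosomes 1 to 19 with both gaps over 50 kb, 257 were 2000 bp or wider, 7.06%. Among peaks with a nearer neighbour within 50 kb, or at a chromosome end, the share was 9.55%. The widest isolated peak was 1996 bp, on chromosome 1 from 162236505 to 162238500. It was followed by 1994 bp on chromosome 10 from 63765848 to 63767841 and 1990 bp on chromosome 8 from 67785213 to 67787202. The next were 1974 bp on chromosome 3 from 77784923 to 77786896 and 1968 bp on chromosome 13 from 77204301 to 77206268. These 5 sat in places 9160, 17187, 11838, 31215 and 5207, none among the first 5000. They do not stand for wide members at large. Of the 142 isolated peaks of 1500 to 1999 bp, 25.4% lay in the first 5000 places, beside 9.22% of all members.

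At the other end, 11 isolated peaks had the smallest width of the short peaks, 265 bp. That is 0.325% of members, beside 0.330% of the other short peaks. The first 5 of the 11 in the deposited order lay on chromosome 1 from 130563886 to 130564150, chromosome 6 from 32356453 to 32356717, chromosome 1 from 91977634 to 91977898, chromosome 4 from 94909891 to 94910155 and chromosome 10 from 6982002 to 6982266. They stood in places 22757, 41487, 44172, 51896 and 56022. Their gaps ran from 53.9 to 439 kb, which is within the range of the members at large.

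Values on both sides of the rule's limits were close. Just inside the gap limit, the 599 short peaks with a nearer gap of 50 to 55 kb had a median width of 429 bp and 8.18% of them lay in the first 5000 places. Just outside it, the 695 with a nearer gap of 45 to 50 kb had a median of 436 bp and 9.50% in the first 5000 places. With both gaps over 50 kb, the 142 peaks of 1500 to 1999 bp had a median place of 12613, and the 85 from 2000 to under 2500 bp had a median place of 12755.

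Every chromosome from 1 to 19 held isolated peaks, from 77 on chromosome 19 to 300 on chromosome 1. Relative to length, taken as the highest peak position, the density was 1.38 per Mb over all 19. Chromosome 3 had the highest density, 1.78 per Mb with 284 peaks, followed by chromosome 16 with 1.66 and chromosome 14 with 1.64. These 3 chromosomes held 651 isolated peaks. Chromosome 7 had the lowest density, 1.05 per Mb with 153 peaks, and chromosomes 9 and 5 had 1.12 each.

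Isolated peaks formed a larger share of the list where the list was thin. On chromosome 3, with 25.7 listed peaks per Mb, 6.90% of peaks were isolated (Wilson interval 6.17 to 7.72%). On chromosome 11, with 43.2 per Mb, 2.75% were isolated (2.34 to 3.23%). Fewer peaks leave longer gaps, so this order follows in part from the rule and carries no test. It was not strict, as several chromosomes of similar density stood out of order. Chromosome 19, with 32.9 peaks per Mb, had 3.82% isolated (3.07 to 4.75%) and chromosome 4, with 34.0, had 3.57% (3.11 to 4.11%), beside 4.16% (3.69 to 4.69%) on chromosome 2 with 34.2. These intervals overlap.

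**Figure D2:**
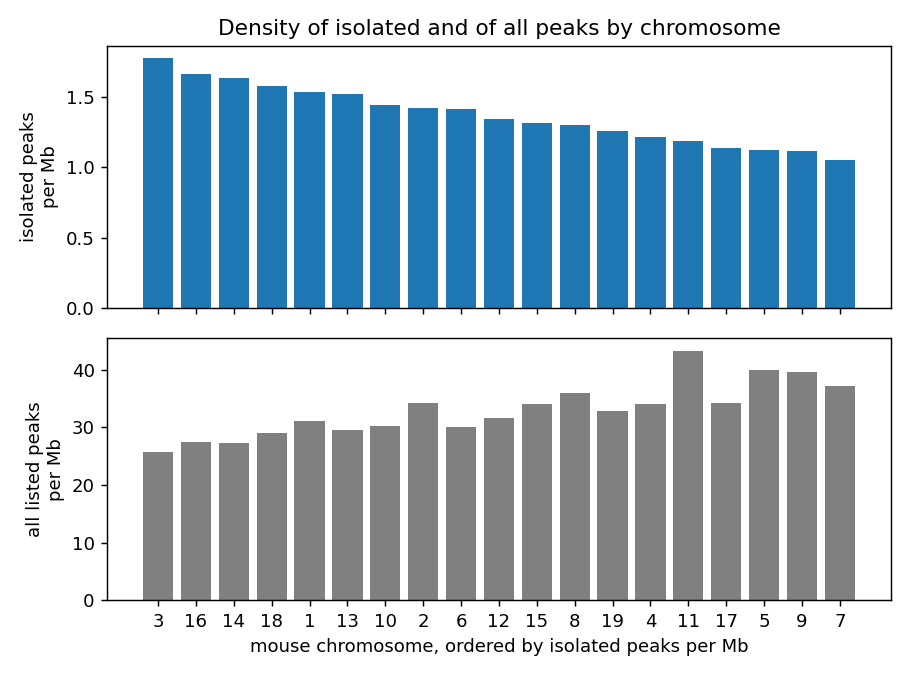
Bars give isolated peaks per Mb (upper panel) and all listed peaks per Mb (lower panel) for mouse chromosomes 1 to 19, ordered by the upper panel. Isolated density falls from 1.78 per Mb on chromosome 3 to 1.05 on chromosome 7, while the density of all peaks is lowest on chromosome 3, at 25.7 per Mb, and highest on chromosome 11, at 43.2.

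Along the chromosomes, isolated peaks were fewer towards the high-coordinate end. The chromosome span was divided into 10 equal parts. The last part held 236 isolated peaks, 6.98%, beside 12.8% of the other short peaks. The second part held 393, 11.6%, beside 8.80%, and the first held 316, 9.34%, beside 6.44%. The last 2 parts together held 15.3% of isolated peaks, 21.1% of short peaks with a nearer gap of 10 to 50 kb and 25.3% of all short peaks that were not isolated. Mouse chromosomes carry their centromere at the low-coordinate end, so the last parts are those farthest from it. The other short peaks were most frequent there, and densely listed peaks leave fewer long gaps. The lower share of isolated peaks thus follows in part from the rule, and a link to position itself was not tested.

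Lone peaks stood in thinner neighbourhoods, but seldom in empty ones. In the 1 Mb around an isolated peak there were a median of 26 listed peaks, itself included, with quartiles of 20 and 33. Around other short peaks the median was 38, with quartiles of 29 and 51. Even so, 1275 isolated peaks had 30 or more listed peaks within that 1 Mb, and the highest number was 97. At only 18 isolated peaks were there 5 listed peaks or fewer. The rule limits these counts from above, so the lower median is no independent result.

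The neighbours of isolated peaks were mostly short as well. Their median width was 495 bp, and 7.04% of them were 2000 bp or wider, beside 9.44% of all peaks on these chromosomes. Isolated peaks are themselves among these neighbours, in 833 adjacent pairs, and the rule holds them under 2000 bp. The lower share of wide neighbours therefore follows in part from the rule. No isolated neighbour stood next to 1933 of the members, 57.1%, and 1450, 42.9%, had at least 1. Of all peaks on these chromosomes 4.16% were isolated. A member and its neighbour share a gap over 50 kb, so the rule itself raises the count of isolated neighbours, and grouping was not tested. In 216 cases both neighbours were themselves isolated.

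Strings of consecutive isolated peaks were short. There were 463 strings of 2, 109 of 3, 32 of 4, 9 of 5 and 4 of 6, which was the longest. One string of 6 ran on chromosome 3 from 93269325 to 94168536, 899 kb, with peaks of 277 to 1925 bp. The others of 6 were on chromosome 4 from 21178858 to 21831406 and from 3243927 to 3686189, and on chromosome 17 from 6578001 to 7152916. Of the 24 peaks in these 4 strings, 1, on chromosome 17, lay in the first 5000 places, beside 9.22% of all members. So few peaks do not tell the strings from the other members.

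Counted by windows of 1 Mb, isolated peaks were spread thinly. Of 2406 windows with any listed peak, 698 had no isolated peak, 726 had 1 and 520 had 2. The highest number was 7, in the windows from 71 to 72 Mb on chromosome 1 and from 61 to 62 Mb on chromosome 2. These windows held 16 and 15 listed peaks in all. The rule keeps each member more than 50 kb from any other peak, so low counts per window follow in part from it.

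The deposited order was not used by the rule. The list does not run along the genome from its start. It runs in 1537 stretches, within each of which chromosome names and positions ascend. Their median length was 3 peaks, and 800 of them started in the first 5000 places. Stretches at the top are short, and the longest lie further down. The longest stretch starting in the first 3000 places had 90 peaks, and the longest of all had 8426. The labels do not say by what the list was ordered, so a place is given here only as a place.

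Against the 4.60% of all short peaks, isolated peaks were frequent at the top of the order, scarcer after it and more frequent again towards the end. Of the short peaks in places 1 to 500, 55 of 403 were isolated, 13.6% (Wilson interval 10.6 to 17.3%). The share was 12.0% in places 501 to 1000, 12.8% in 1001 to 2000 and 11.0% in 2001 to 5000. It then dropped to 5.36% in places 5001 to 10000 and 3.14% (2.81 to 3.52%) in 20001 to 30000. From there it rose in each further block of 10000 places, to 5.37% (4.94 to 5.83%) in 70001 to 80000.

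**Figure D3:**
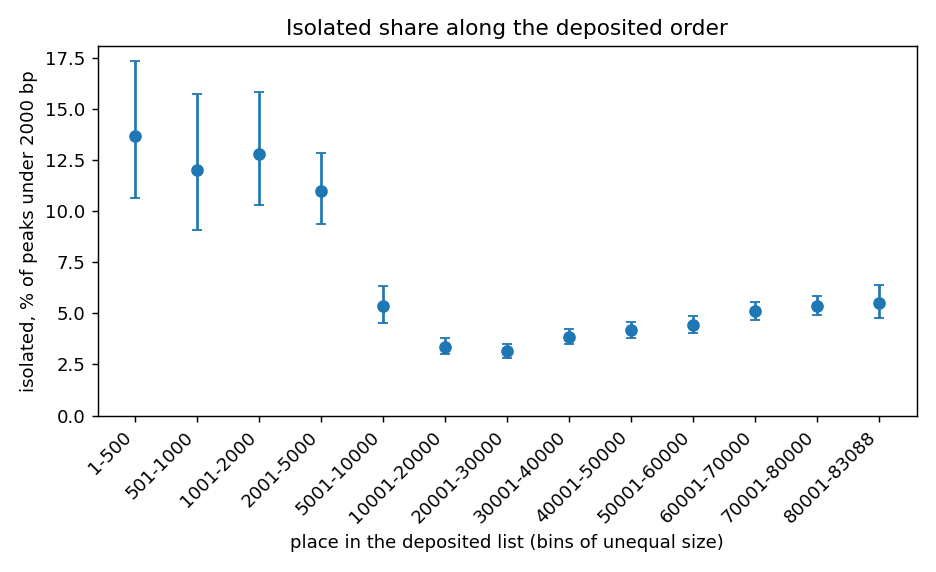
The y axis is the percent of peaks under 2000 bp on chromosomes 1 to 19 that were isolated, the x axis the place in the deposited list in bins of unequal size, and bars are Wilson 95% intervals. The share lies between 11.0 and 13.6% in the bins up to place 5000, reaches its lowest value of 3.14% in places 20001 to 30000 and is 5.52% at the end.

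With the list split into 4 equal parts, 21.3% of isolated peaks lay in the first, 21.0% in the second, 26.2% in the third and 31.4% in the fourth. Of the short peaks with a nearer gap of 10 to 50 kb, 21.6, 21.1, 26.1 and 31.2% lay in these parts, and of those with a neighbour within 3 kb 17.5, 29.6, 27.9 and 24.9%. Split finer, the share in the first part was 19.7% with a neighbour within 1 kb and 12.4% at 1 to 3 kb. Width fell along the same order. The median width of isolated peaks was 735 bp in the first part, 523 bp in the second, 417 bp in the third and 362 bp in the fourth. The gap to the nearer neighbour hardly moved, with medians of 69.6, 68.7, 68.7 and 67.0 kb.

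The first isolated peaks of the order were wider than the last. The very first, in place 15, lay on chromosome 13 from 101819873 to 101820695 and was 823 bp wide. Places 54, 55, 60 and 80 followed, with 880 bp on chromosome 5 from 62062790 to 62063669, 528 bp on chromosome 10 from 126775838 to 126776365, 540 bp on chromosome 9 from 105771888 to 105772427 and 722 bp on chromosome 8 from 116946155 to 116946876. The last 5, in places 82880 to 82988, all lay on chromosome 9 and were 305, 307, 413, 346 and 477 bp wide. Their positions ascend along that chromosome, as positions do within a stretch of the list. Whether all 5 belong to the same stretch was not examined. A pair of these peaks, from 66319824 to 66320130 and from 66419933 to 66420345, are each other's neighbours, 99.8 kb apart.

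Over all widths under 2000 bp, isolated peaks had nearly the same share in early places as peaks with a nearer gap of 10 to 50 kb, while the share of closely spaced peaks was far lower. Peaks of 1000 to 1999 bp were an exception, with 26.0% for isolated peaks and 19.7% for the 10 to 50 kb class. The limit of 5000 places was chosen after the shares above were seen. In the first 5000 places lay 312 isolated peaks, 9.22% of all members (Wilson interval 8.29 to 10.2%). The share was 9.03% (8.57 to 9.52%) for short peaks with a nearer gap of 10 to 50 kb, 6.29% (5.79 to 6.83%) at 3 to 10 kb and 1.08% (0.987 to 1.17%) for those with a neighbour within 3 kb. The isolated share lay inside the interval of the 10 to 50 kb class and far above that of closely spaced peaks. Splitting finer, it was 0.890% within 1 kb and 1.52% at 1 to 3 kb, then 9.29% at 10 to 25 kb and 8.65% at 25 to 50 kb.

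**Figure D4:**
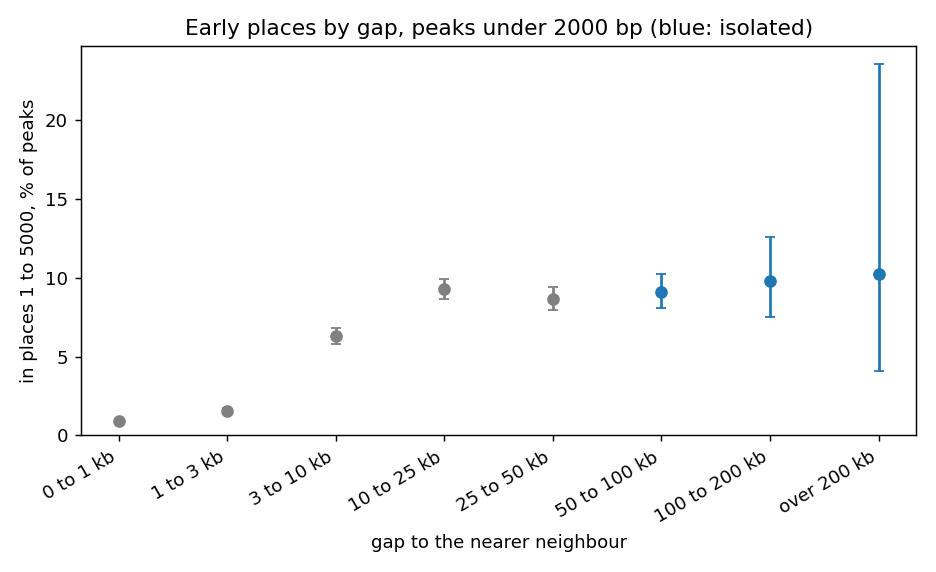
Points give the percent of short peaks in places 1 to 5000, with Wilson 95% intervals, by the gap to the nearer neighbour; blue points are isolated peaks and grey points are not. The percent climbs from 0.890 within 1 kb to 9.29 at 10 to 25 kb and is 9.10 at 50 to 100 kb, with wide intervals above 100 kb.

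More isolation among the members brought little further change. The share in the first 5000 places was 9.02% (7.86 to 10.3%) at a nearer gap of 50 to 75 kb, 9.32% at 75 to 100 kb, 9.55% at 100 to 150 kb and 10.7% (6.47 to 17.1%) above 150 kb. These intervals overlap. Median widths in the 4 classes were 445, 451, 431 and 442 bp. Nor did the neighbours' kind separate the members. With a neighbour of 2000 bp or more the share was 9.31% (6.98 to 12.3%), and with both neighbours under 2000 bp it was 9.21% (8.21 to 10.3%).

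At the limit of 5000 places, the pattern held on each chromosome against closely spaced peaks. It was less even for the first of 4 equal parts of the order. There the isolated share was above that of the other short peaks on 16 of 19 chromosomes, and lower on chromosomes 7, 11 and 19. The isolated share in the first 5000 places was above that of peaks with a neighbour within 3 kb on all 19 chromosomes, at 5.19 to 13.1% against 0.600 to 1.33%. The lowest isolated share was on chromosome 19, with 4 of 77 peaks, and the highest on chromosome 15, with 18 of 137. Against peaks with a nearer gap of 10 to 50 kb the isolated share was higher on 10 of the 19 and lower on the other 9.

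Wide short peaks were more often in the first 5000 places than narrow ones, so the shares were also read within bands of width. Width did not fall steadily from the top. The median of other short peaks was 784 bp in the first 5000 places and 1136.5 bp in places 5001 to 10000. Among peaks of 400 to 599 bp, 71 of 897 isolated peaks, 7.92% (6.32 to 9.87%), lay in the first 5000 places. In the same band the share was 8.16% (7.29 to 9.12%) at a nearer gap of 10 to 50 kb and 0.578% (0.458 to 0.729%) with a neighbour within 3 kb. In the band of 265 to 309 bp the 3 shares were 1.77, 1.89 and 0.0980%. In the widest band, 1000 to 1999 bp, 107 of 412 isolated peaks, 26.0% (22.0 to 30.4%), were in the first 5000 places. There the 10 to 50 kb class had 19.7% (17.9 to 21.6%) and closely spaced peaks 2.90% (2.57 to 3.27%). This was the one band of 5 in which the intervals of isolated peaks and of the 10 to 50 kb class did not overlap.

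**Figure D5:**
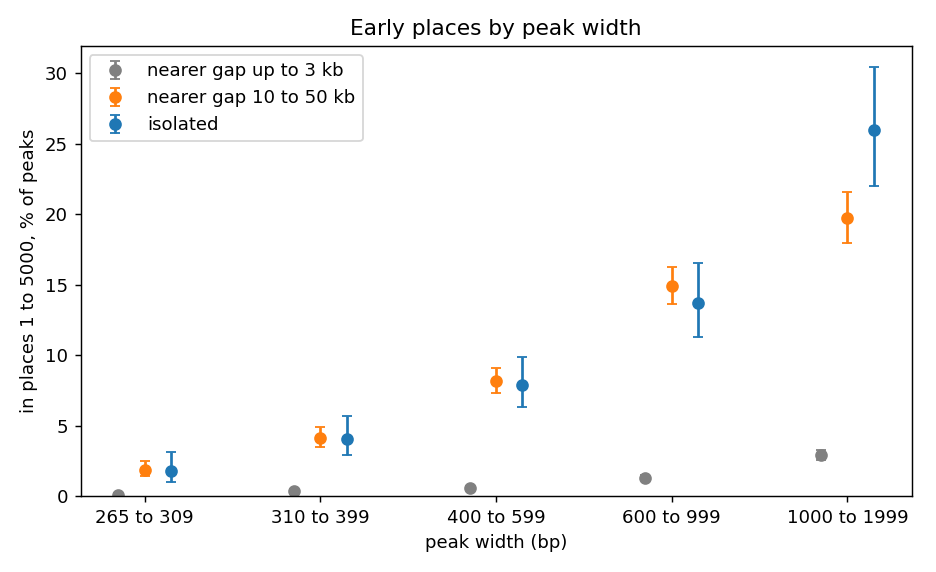
Points give the percent of peaks in places 1 to 5000 with Wilson 95% intervals, by peak width in bp, for isolated peaks (blue), short peaks with a nearer gap of 10 to 50 kb (orange) and those with a neighbour within 3 kb (grey). Blue and orange points overlap up to 999 bp and stand at 26.0 and 19.7% in the widest band, with grey at 2.90%.

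In the KG1a list the same rule would take most peaks. There 776 of the 860 peaks on numbered chromosomes were under 2000 bp wide with both gaps over 50 kb. A list of 873 peaks leaves long gaps wherever the peaks lie, so these numbers cannot be set against the mouse share.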

How the data were processed

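MACS2 and Bowtie2 are named in the submitters' processing notes beside deepTools and CASAVA 1.4, with GRCm38 as the mouse build. Their settings, the peak threshold and the sort order were not given in the sources used here. Per cell source, the authors deposited 1 peak list, ChIP against input, holding a chromosome, start and end per peak and no other value. Starts were read as counted from 0 and are printed counted from 1.

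Gaps were measured from the end of a peak to the start of the next in the whole list, on each chromosome. The first and last peak of a chromosome have 1 neighbour and were left out. Python 3.11.15, pandas 2.3.3, scipy 1.17.1 and matplotlib 3.10.9 were used. The search was checked on a simulated list. Its gaps stayed clear of the 50 kb limit and its widths stayed below the 2000 bp limit. The check therefore does not cover peaks close to these limits. Regions named were the 10 members with the largest nearer gap, the 5 widest, the 5 narrowest, and the first 5 and last 5 in the deposited order. The members and lists were chosen with earlier results of these data known. Gene closeness, gene lists and motif searches had been planned and were not run, since no mouse gene table or genome was used here.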

Additional observations from a re-analysis of the deposited data

How the results depend on the processing

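The number of isolated peaks depends on the rule. It was 8965 with a gap over 25 kb, 571 with a gap over 100 kb, and 11646 when neighbours were sought only among the first 50% of the order; 4 other settings gave 2971 to 3640. The median width of 443 bp was 433 bp with a gap over 100 kb and 468 bp without the width limit. The density on chromosome 3 was 1.29 times that of the 19 chromosomes together, and 1.08 times with a gap over 25 kb. With widths of 310 to 600 bp alone, the share in the first of 4 equal parts of the order went from 21.3 to 14.9%, and that in the first 5000 places from 9.22 to 6.11%. In that range it was 6.23% at a nearer gap of 10 to 50 kb and 0.478% within 3 kb, so closely spaced peaks still had the lowest share of the 3. With 4 equal parts within each chromosome, the share in the first part was 21.5%, inside the Wilson interval of 20.0 to 22.7% of the value given. Taking each place as the start of its stretch moved no isolated peak across these limits, so it says nothing about stability. These 2 settings, and all for the first 5000 places, were added after seeing the data. The alternatives for gene closeness were not run. No paired analysis was possible because each group has 1 library. Depth is unknown, and what it limits could not be examined.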

Other observations

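Chromosomes X and Y are outside the rule. By the same width and gap limits, 362 of 1577 listed peaks on X, 23.0%, and 29 of 119 on Y, 24.4%, would be isolated. Fewer peaks leave longer gaps, and the peaks per Mb of X and Y were not measured here. These shares are therefore not set against that of chromosomes 1 to 19. The median widths of these isolated peaks were 415 bp on X and 387 bp on Y, and 25 of those on X and 2 of those on Y lay in the first 5000 places. Of 37 short peaks that stood first or last on chromosomes 1 to 19, 10 had their single gap over 50 kb.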
